A study of Mus musculus with 2 samples.

Results

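The cytosolic ribosomal protein genes are the genes for the protein subunits of the ribosome that works in the cytoplasm. Members were all symbols that begin with Rpl or Rps followed by a digit, together with Rplp0, Rplp1, Rplp2 and Rpsa, leaving out symbols with -ps (pseudogenes) and the Rps6k kinases. The rule found 90 genes among the 25846 genes with at least 1 UMI (unique molecular identifier, the count of 1 captured RNA molecule). Of the 90 members, 77 were core genes, 46 of the large and 31 of the small subunit. The other 13 were paralogs, retrocopies and Rps19bp1, which the rule takes in by its symbol although it is not a subunit. The rule reads the symbol and asks for at least 1 UMI, which all 90 matching symbols had. No level or ratio entered the rule, though it was set with earlier results of these data known.

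The samples were 2 single-cell libraries of mandibular first molars with the tissue around them, from C57BL/6J mice at PN15.5 (PN, postnatal day). The Lipo-Clo mice had received clodronate liposomes, which phagocytic cells take up and which kill them, given 4 times at 40 µg per g, from PN3.5 to PN12.5 at intervals of 3 days. The Lipo-PBS mice had received PBS liposomes as the vehicle. With 1 library per group there is no replicate check, no test was possible, and each interval below is an exact 95% interval for counting error alone. How many mice went into a library is not stated, and any difference between litters, dissections or library preparations cannot be told apart from the treatment.

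After filtering, 8254 Lipo-Clo and 8261 Lipo-PBS cells remained, with a median of 2567 and 2678 UMIs per cell. Mitochondrially coded genes took 0.370% of the UMIs in Lipo-Clo and 1.73% in Lipo-PBS, and haemoglobin genes took 5.45% and 7.91%, so both differed between the libraries as a whole. Only 30 cell barcodes occurred in both libraries. Clustering without the ribosomal protein genes gave 27 clusters, of which 24 could be named from marker genes and were joined into 11 cell classes. One of the 3 unnamed clusters, led by Tm4sf1, Acta2 and Tagln and holding genes of several lineages, had 38 Lipo-Clo cells and 590 Lipo-PBS cells. Macrophages, the cells that clodronate is meant to remove, made up 127 of the Lipo-Clo cells and 188 of the Lipo-PBS cells. Another unnamed cluster, led by Ms4a6c, Cd74 and Lyz2, held 386 Lipo-Clo and 223 Lipo-PBS cells. It belongs to no class below, and ribosomal protein genes took 21.2% and 15.8% of its UMIs.

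A ribosome is built from ribosomal RNA and 1 copy of nearly every ribosomal protein, so cells make these proteins in step. Their mRNAs are abundant, short and usually begin with a run of pyrimidines at the very 5′ end, through which mTOR signalling adjusts their translation. The set is known for taking a large part of the mRNA in growing and lymphoid cells and a small part in terminally differentiated cells such as mature neutrophils.

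RefSeq's promoter table (GRCm38.p6), which gives 250 bases before and 50 after each listed start, held 68 of the 90 members. The 30 bases around the listed start are printed for 3 members with high Lipo-Clo/Lipo-PBS ratios in the dental mesenchyme (Rpl24, Rps7, Rps27l), 2 with low ratios (Rps28, Rpl10) and the paralog Rpl22l1, because the 5′ end is where these mRNAs carry their shared element. Capitals mark the longest run of at least 5 pyrimidines that begins with C and starts within 10 bases of the listed start. A run that begins further upstream is marked only from that limit on. In Rps27l the pyrimidines therefore continue upstream of the capitals, and a shorter run just after the listed start is not marked.
Rpl24, chr16:55966260-55966289, plus strand: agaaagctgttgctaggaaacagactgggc
Rps7, chr12:28635939-28635968, minus strand: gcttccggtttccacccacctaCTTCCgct
Rps27l, chr9:66946071-66946100, plus strand: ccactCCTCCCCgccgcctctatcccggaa
Rps28, chr17:33824548-33824577, minus strand: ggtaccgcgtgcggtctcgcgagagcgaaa
Rpl10, chrX:74270801-74270830, plus strand: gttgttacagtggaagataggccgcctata
Rpl22l1, chr3:28805493-28805522, plus strand: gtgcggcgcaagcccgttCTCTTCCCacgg

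A gene counted as having a feature where any of its listed starts had it, so genes with more listed starts had more chances to match. A run of at least 5 pyrimidines was found in 41 of the 68 members (60.3%), against 37.3% of 3645 other genes in use in the dental mesenchyme and 34.4% of all 27025 genes in the table. A run of at least 8 was found at 25 members (36.8%), against 11.1% and 9.43%. The letters CGGAAG, the core that ETS factors such as GABPA are known to bind, were searched on both strands of the 300-base window and were found in 44 members (64.7%), against 35.4% of the other genes in use and 18.8% of all genes. TATAAA on either strand was found in 10.3% of members, 9.41% of the other genes in use and 15.7% of all genes. The run and CGGAAG were thus more frequent in members than in the other genes in use, with no test of the difference, and TATAAA was about as frequent. Among members in use in the dental mesenchyme, the 36 with the run had a median log2 ratio of Lipo-Clo over Lipo-PBS of 0.32 and the 27 without it 0.30, so the ratio hardly varied with the run. The 43 with CGGAAG had a median of 0.31 and the 20 without it 0.30. A match is a description of the letters, and a listed start can lie some bases from the start that the cell uses.

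Ribosomal protein genes took 14.2% of all UMIs in Lipo-Clo (3804847 UMIs) and 12.1% in Lipo-PBS (3125893 UMIs), a log2 ratio of 0.23. Core genes made up almost all of it, with 13.8% and 11.8% of the UMIs. In the 11 named classes alone the shares were 13.4% and 11.8%, a log2 ratio of 0.19. Weighting both libraries to the same mixture of these classes gave 13.6% and 11.7%, a log2 ratio of 0.22. The pseudogene symbols that the rule left out held 1045 and 1280 UMIs in all.

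The share differed more between cell classes than between libraries. With the UMIs of both libraries pooled, B cells had the highest share at 17.5% and neutrophils the lowest at 5.75%, a spread of 1.61 on the log2 scale. The lowest class was the same in each library, whereas the highest was T or NK cells in Lipo-Clo (19.7%) and epithelium in Lipo-PBS (15.3%), and T or NK cells were highest in the pooled value under 7 of the other settings. At the stricter cell filter perivascular cells were lowest, and with every deposited cell or at Leiden resolution 2 erythroid cells were. T or NK cells had 17.1%, epithelium 14.0%, cycling cells 13.6% and dental mesenchyme 13.2%. Macrophages (12.2%), endothelium (12.0%) and glia (10.9%) lay in the middle, above perivascular cells (9.71%) and erythroid cells (9.63%). The low erythroid rank depended on the totals, because haemoglobin genes took 46.6% of erythroid UMIs in Lipo-Clo and 51.9% in Lipo-PBS. With mitochondrial and haemoglobin genes left out, erythroid cells had 18.8%, between B cells (19.3%) and T or NK cells (18.5%). The clusters inside a class could differ as much as classes did. In epithelium, the cluster led by Krt15, Krt6a and Lgals7, keratin and lectin genes of stratified epithelium, had 23.3% in Lipo-Clo and 20.4% in Lipo-PBS. The cluster led by Amelx, Klk4 and Amtn, the enamel protein genes of ameloblasts, had 7.42% and 7.35%. In B cells, the cluster led by Igll1, Vpreb1a and Vpreb3, the surrogate light chain genes of B cell precursors, had 23.1% and 18.5%, above the 15.1% and 11.3% of the cluster led by Igkc, Cd79a and Cd79b. In each of these classes the cluster with the higher share was the same in both libraries.

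**Figure D1:**
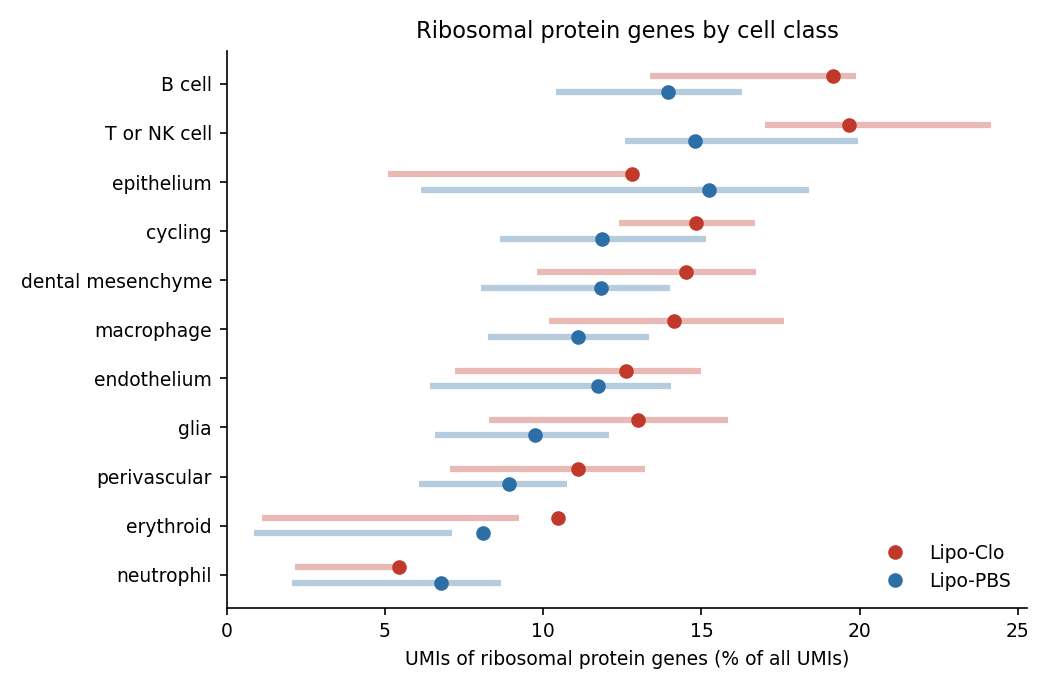
Share of UMIs from the 90 ribosomal protein genes in each cell class (x axis, % of all UMIs of the class), with classes ordered by the value over both libraries. Points are pooled shares of each library, and bars span the 25th to 75th percentile of single cells. A point can lie outside its bar where a few deep cells hold many UMIs, as in erythroid cells. Lipo-Clo lies to the right in 9 of 11 classes.

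The share was higher in Lipo-Clo in 9 of the 11 classes, and in 10 of 11 under the 3 settings in which neutrophils changed direction. At 2 of these, the stricter cell filter and Leiden resolution 2, the class named neutrophil also held other cells. The log2 ratio of a whole class was highest in B cells at 0.46 (0.45 to 0.47), where Lipo-Clo had 19.2% and Lipo-PBS 13.9%. Both B cell clusters had lower ratios, 0.32 in the one led by Igll1 and 0.41 in the one led by Igkc. The Igll1 cluster, whose share is higher, held 152 Lipo-Clo and 60 Lipo-PBS cells, and the Igkc cluster 371 and 207. A common mixture of both gave 0.40, below the values of glia and T or NK cells. Glia had 13.0% and 9.74%, a log2 ratio of 0.42 (0.40 to 0.43). T or NK cells had 19.7% and 14.8%, with 0.41 (0.39 to 0.43). Erythroid cells (0.37), macrophages (0.35), cycling cells (0.32) and perivascular cells (0.31) came next, and neighbouring classes in this order often had intervals that overlapped. The erythroid value was not stable, with 0.43 and 0.09 in its 2 clusters, 0.15 with a common mixture of them in both libraries and 0.99 with every deposited cell kept. Dental mesenchyme, the largest class with 4124 and 3962 cells, had 14.5% and 11.8%, a log2 ratio of 0.29 (0.29 to 0.30). Endothelium had 12.6% and 11.7%, with 0.10 (0.09 to 0.12). Both of its clusters had higher ratios, 0.22 in the one led by Flt1, Cdh5 and Emcn and 0.28 in the one led by Ccl21a and Lyve1, genes of lymphatic vessels, which has the higher share and held 31 Lipo-Clo against 147 Lipo-PBS cells. A common mixture of both gave 0.23.

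Epithelium and neutrophils had lower shares in Lipo-Clo as whole classes. Epithelium had 12.8% in Lipo-Clo against 15.3% in Lipo-PBS, for a log2 ratio of −0.25 (−0.26 to −0.25). Within its clusters the direction was the other way or near 0, with log2 ratios of 0.19 (0.18 to 0.20) in the Krt15 cluster, 0.12 (0.09 to 0.14) in the cluster led by Dsc3 and Nppc, and 0.01 (−0.00 to 0.03) in the Amelx cluster. The cell numbers of these clusters differed between the libraries. Lipo-Clo had 604 cells of the Amelx cluster, whose share is low, against 342 in Lipo-PBS, and 181 cells of the Krt15 cluster, whose share is high, against 382. With a common mixture of the 3 clusters in both libraries, epithelium had 15.3% in Lipo-Clo against 13.5% in Lipo-PBS, for a log2 ratio of 0.18.

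Neutrophils had 5.44% in Lipo-Clo against 6.77% in Lipo-PBS, for a log2 ratio of −0.32 (−0.33 to −0.30). The direction turned with the processing, to 0.24 at the stricter cell filter, 0.40 at Leiden resolution 2 and 0.02 with members among the variable genes. When the class was clustered again, 4 of 6 subclusters had a higher share in Lipo-Clo. The 2 others were led by genes of other lineages. The subcluster led by Dcn, Fstl1 and Serpinf1, which are genes of fibroblasts and other mesenchyme, held 124 Lipo-Clo and 91 Lipo-PBS cells and had 8.56% and 10.6%. The subcluster led by Ambn and other ameloblast genes held 13 and 4 cells. Without these 2 subclusters, the remaining 388 Lipo-Clo and 135 Lipo-PBS neutrophils had 3.79% and 2.63%, a log2 ratio of 0.52 (0.49 to 0.56). In these cells haemoglobin genes took 2.23% of the UMIs in Lipo-Clo and 11.9% in Lipo-PBS. With mitochondrial and haemoglobin genes left out of the totals, the log2 ratio was 0.37. In the subcluster led by Nlrp3 and Il1b, genes of inflammatory activation, the share was 3.63% and 2.54%, and in the one led by Retnlg it was 2.89% and 2.00%. Their log2 ratios were 0.51 and 0.54, and 0.30 and 0.26 without mitochondrial and haemoglobin genes in the totals. The largest, led by Ly6a2 and Camp (162 Lipo-Clo and 45 Lipo-PBS cells), had 3.28% and 2.79%, with 0.23, and 0.19 without those genes. The one led by Cdk1 and H2ac8 had a higher share, 5.65% and 3.51%, with 0.69, and 0.50 without those genes. It held 45 Lipo-Clo and 6 Lipo-PBS cells, and a common mixture of the 4 was not computed. The class value of neutrophils and the value of the subclusters without genes of other lineages thus had opposite directions.

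**Figure D2:**
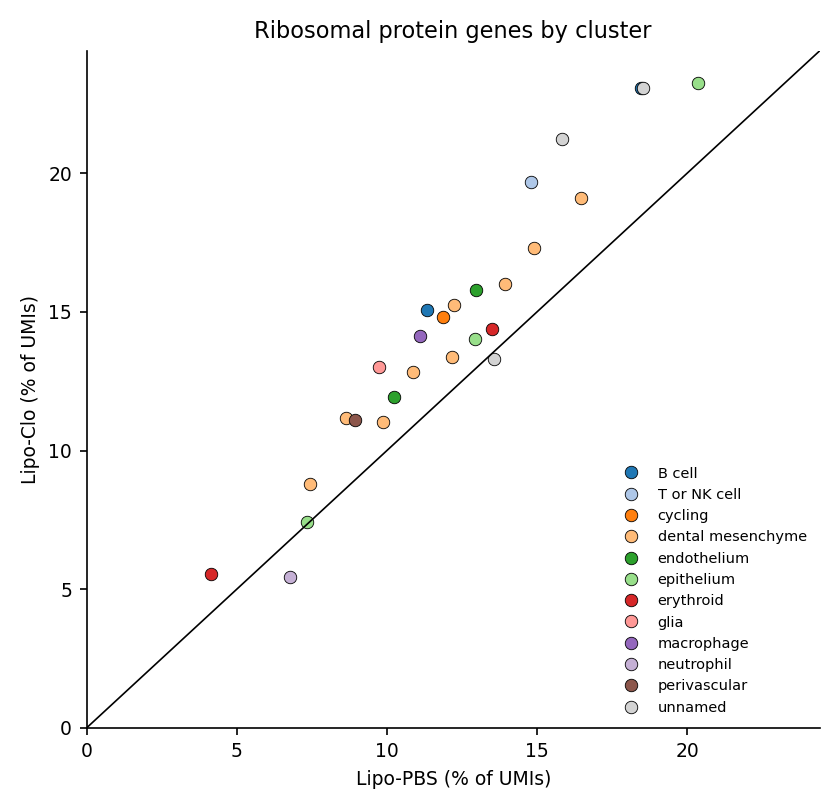
Share of UMIs from ribosomal protein genes in each of the 27 clusters, in Lipo-PBS (x axis, %) and Lipo-Clo (y axis, %), coloured by cell class, with the line of equal shares. Points lie above the line in 25 clusters and below it in 2, the neutrophil cluster and the unnamed cluster led by Tm4sf1, Acta2 and Tagln.

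By cluster, 25 of 27 had a higher share in Lipo-Clo, 24 of them with an interval above 0. The 2 lower ones were the neutrophil cluster and the unnamed cluster with genes of several lineages, which had 13.3% and 13.6%. All 9 clusters of dental mesenchyme were higher in Lipo-Clo. When this class was clustered again, all 10 subclusters were higher too, with log2 ratios from 0.14 to 0.43. The subcluster led by Moxd1, C1qtnf3 and Col18a1 had the ratio of 0.43, with 11.9% in Lipo-Clo and 8.85% in Lipo-PBS. The subcluster led by Dspp and Bglap, genes of odontoblasts, the dentin-forming cells, had 0.14, with 13.7% and 12.4%. The order of levels was nearly the same in both libraries. The subcluster led by Lrrc4c, Egfem1 and Pcp4 was highest, with 18.8% and 16.2%, followed by the one led by Pcp4, Mmp13 and Sfrp2 with 18.2% and 15.7%. The subcluster led by Ctnnd2 and Cntn4 was lowest, with 8.51% and 7.37%. A common mixture of the subclusters in both libraries lowered the log2 ratio of the class from 0.29 to 0.24.

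Gene by gene, the members were compared in the dental mesenchyme as CPM (UMIs of the gene scaled to 1000000 UMIs of the class), and a gene was taken as in use where at least 10% of the cells of either library had a UMI. Of the 90 members, 84 were in use. All 84 were higher in Lipo-Clo than in Lipo-PBS, against 49.4% of all genes in use, though Rps28, Rps29 and Rpl7l1 fell slightly below 0 under some other settings. The ratio reached 1.2-fold in 58 of them and was 1.2-fold lower in 0, while 22% of all 4654 genes in use were at least 1.2-fold higher and 22.7% at least 1.2-fold lower. The median log2 ratio was 0.31 over the members and −0.01 over all genes in use. The members kept to a narrow band, from 0.01 (Rps28) to 0.49 (Rpl24), and none reached 1.5-fold, a size that 0.817% of genes in use reached upwards and 4.83% downwards. Other scalings gave like counts, with 57 members higher by edgeR TMM factors (21.7% of genes higher, 23.1% lower) and 60 by DESeq2 size factors (22.4% higher, 22% lower). With mitochondrial, haemoglobin and ribosomal protein genes left out of the totals it was 46 (18.6% higher, 25.7% lower). For 81 of the 84 the counting interval lay above 0, and the share of all genes in use with such an interval is not given here. Of the 46 core genes of the large subunit, 32 passed 1.2-fold with a median of 0.29, and of the 31 of the small subunit, 22 did with a median of 0.31. CPM serves here to compare the same gene between libraries, classes and clusters, and differences in CPM between genes are not interpreted.

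**Figure D3:**
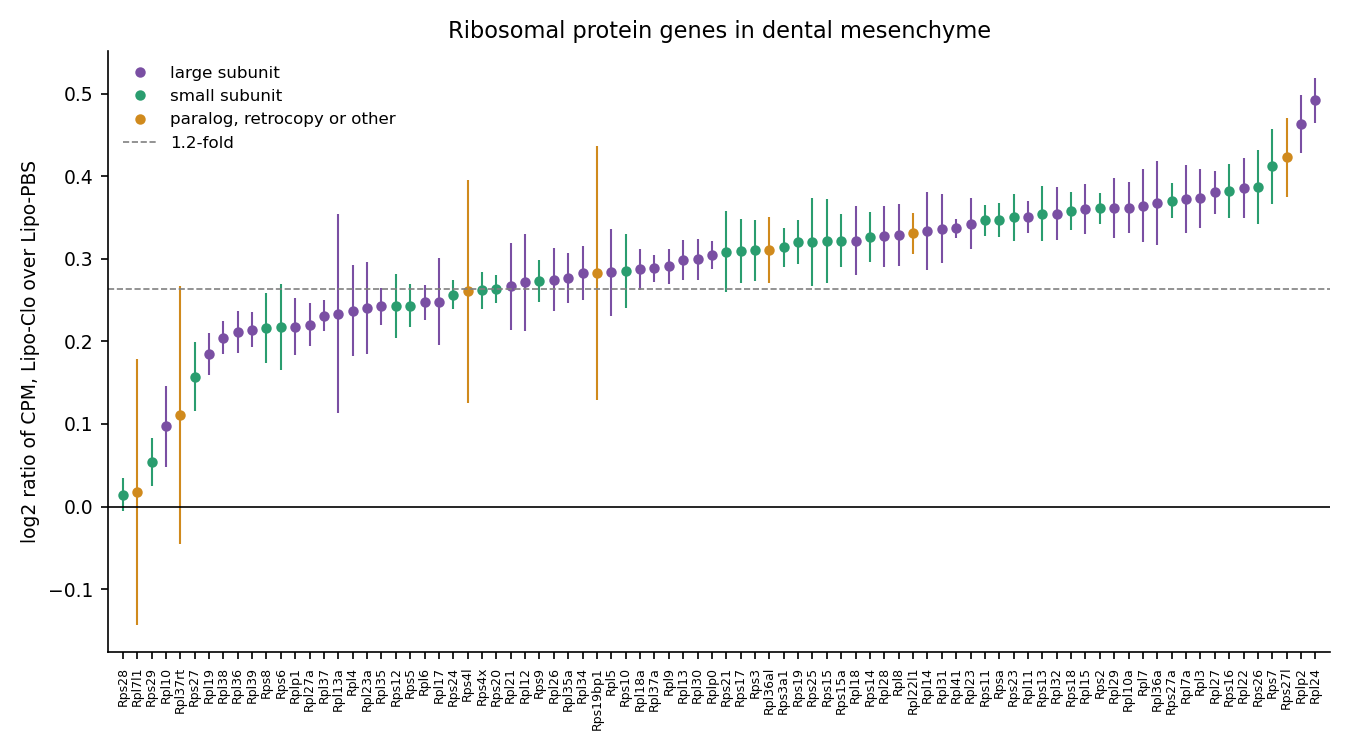
Log2 ratio of CPM, Lipo-Clo over Lipo-PBS, of the 84 members in use in the dental mesenchyme (y axis), sorted by value (x axis, gene symbols). Points are genes, coloured by subunit, vertical lines are exact 95% counting intervals, and the dashed line marks 1.2-fold. All 84 points lie above 0, from 0.01 to 0.49, of which Rps28, Rps29 and Rpl7l1 fell below 0 under some other settings.

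The member with the highest ratio was Rpl24, a large subunit protein at the bridge to the small subunit, with 2027 CPM in Lipo-Clo against 1441 in Lipo-PBS, for a log2 ratio of 0.49 (0.46 to 0.52). Rplp2, an acidic protein of the stalk, had 1181 against 857 CPM, which gave a log2 ratio of 0.46 (0.43 to 0.50). Rps7, a small subunit protein needed for ribosomal RNA processing, had 692 and 520 CPM, with 0.41 (0.37 to 0.46). The counting intervals of these 3 lay above the median of the members (0.31), but so did those of many others. Among them was the paralog Rps27l (0.42, 0.38 to 0.47), which ranked above Rps7. Rps26, which lines the mRNA exit channel, Rpl22, Rps16 and Rpl27 had log2 ratios between 0.38 and 0.39.

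At the other end, Rps28, which contacts mRNA near the exit channel, had 2943 CPM in Lipo-Clo against 2913 in Lipo-PBS, for a log2 ratio of 0.01 (−0.01 to 0.03). Rps29, a small zinc-binding protein of the small subunit, had 1482 and 1427 CPM, with 0.05 (0.03 to 0.08). Rpl10, which is added last to the large subunit before it can enter translation, had 518 and 485 CPM, with 0.10 (0.05 to 0.15). The 3 had nearly equal levels in both libraries while most members differed. Rps28 was higher in Lipo-Clo in 3 of 10 mesenchymal subclusters and Rps29 in 4 of 10, whereas 52 members were higher in all 10. The share of all genes in use that were higher in all 10 is not given here. The low ratio of Rps28 recurred in other classes, with 0.16 in B cells and −0.07 in cycling cells, below their member medians of 0.47 and 0.34. The paralog Rpl7l1 (0.02) ranked between Rps28 and Rps29, and the retrocopy Rpl37rt (0.11) just above Rpl10. Rps27 (0.16), Rpl19 (0.18) and Rpl38 (0.20) followed. Rps27 has a near-identical retrogene, Rps27rt, so its counts are uncertain. Rps28, Rps29, Rps27 and Rpl38 are also among the members with the shortest transcripts.

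By role, the members had median log2 ratios from 0.24 to 0.34 in the dental mesenchyme. The counts by role stand beside the 22% of all genes in use that were at least 1.2-fold higher. The 4 stalk genes, which recruit the elongation factors, had a median log2 ratio of 0.29, with Rplp0, the base of the stalk, at 4681 CPM in Lipo-Clo and 3789 in Lipo-PBS (0.30) and Rplp1 at 1132 and 974 CPM (0.22). Rpl5 and Rpl11, which with 5S RNA can bind Mdm2 when ribosome assembly fails, had 0.28 and 0.35. The 9 genes of the peptide exit tunnel had a median of 0.24, and 3 of them passed 1.2-fold. The 8 genes of mRNA entry, exit and decoding had a median of 0.34 with a range from 0.01 to 0.39, and 7 passed. Among these, Rpsa, the laminin receptor protein of the small subunit, had 3412 and 2682 CPM (0.35). The 18 genes that are mutated in Diamond-Blackfan anaemia, a failure of red cell production, had a median of 0.30, and 13 passed. Of the members with the most UMIs, Rpl41, the smallest of the proteins, had 10588 and 8384 CPM (0.34), Rpl37a 5004 and 4097 (0.29), Rps20 4598 and 3831 (0.26) and Rps24 4461 and 3734 (0.26).

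Across the other classes the members also moved as a block, read against the share of all genes in use that passed the same limit. In B cells 77 of 82 members in use were at least 1.2-fold higher, against 33.3% of genes in use. In glia it was 70 of 82 (28.7% of genes), in T or NK cells 69 of 83 (36.3%) and in erythroid cells 69 of 82 (39.8%). In macrophages it was 63 of 84 (28.8%), in perivascular cells 60 of 81 (28.2%) and in cycling cells 59 of 84 (34.5%). At least 1.2-fold lower were 0 members in B cells (31.9% of genes), glia (32.4%), erythroid cells (21.1%), macrophages (34%) and perivascular cells (19.3%), 2 in T or NK cells (33.1%) and 1 in cycling cells (29.3%). In endothelium 8 of 83 were higher, against 24.4% of genes, and 0 lower, against 20% of genes, with a member median of 0.10. These counts are of whole classes, and some classes had clusters of unequal size in the libraries. A common mixture of clusters gave log2 ratios of the share of 0.15 in erythroid cells, 0.40 in B cells and 0.23 in endothelium. In epithelium 37 of 84 members were at least 1.2-fold lower (22.5% of genes), with a median of −0.25. The 3 epithelial clusters, whose cell numbers differed between the libraries, had log2 ratios of the share of 0.19, 0.12 and 0.01. A common mixture of them gave 0.18, and members were not counted gene by gene at that mixture. In neutrophils 55 of 80 were lower, where 52.6% of all genes in use were lower too and the median over all genes was −0.30. Without the 2 subclusters led by genes of other lineages, 68 of 79 members in use were at least 1.2-fold higher in Lipo-Clo (34.9% of genes) and 0 lower (37.9% of genes), with a median of 0.56. The mixture of the remaining subclusters also differed between the libraries and was not made equal. By the values of whole classes, Rps27l stood apart in epithelium, with 699 CPM in Lipo-Clo and 614 in Lipo-PBS (0.19), and in B cells, with 765 and 373 CPM (1.04).

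Within the ribosomal protein UMIs, the share of single genes varied moderately between classes. For 79 members with at least 50 UMIs in every class, the range between the highest and lowest class was 0.53 at the median on the log2 scale, and it passed 1.00 for 5 of them. Rpl10 had the widest range, 1.29, from 0.618% of the ribosomal protein UMIs in macrophages to 0.253% in erythroid cells. In macrophages Lipo-Clo had 0.59% and Lipo-PBS 0.63%, above that in every other class of both libraries. Rps29 was also highest in macrophages, at 2.11%, against 1.10% in the dental mesenchyme. Rps9, a small subunit protein at the mRNA entry side, was highest in neutrophils at 2.79%, with 3.01% in Lipo-Clo and 2.21% in Lipo-PBS, against 1.30% in cycling cells. Without the 2 neutrophil subclusters led by genes of other lineages its share was 4.18% and 4.25%, so both libraries then had nearly the same value. Neutrophils also had the lowest share of Rpl12, a protein beside the stalk, at 0.170%, against 0.333% in epithelium, and at 0.0942% without those 2 subclusters. T or NK cells had the lowest shares of Rpl23a (0.174%), Rps25 (0.227%), Rps15 (0.236%) and Rps27l (0.243%). Perivascular cells were highest for Rpl23a (0.384%) and Rps27l (0.543%). Core genes of the large subunit made up 59.4% of the set in glia and 55.2% in B cells.

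**Figure D4:**
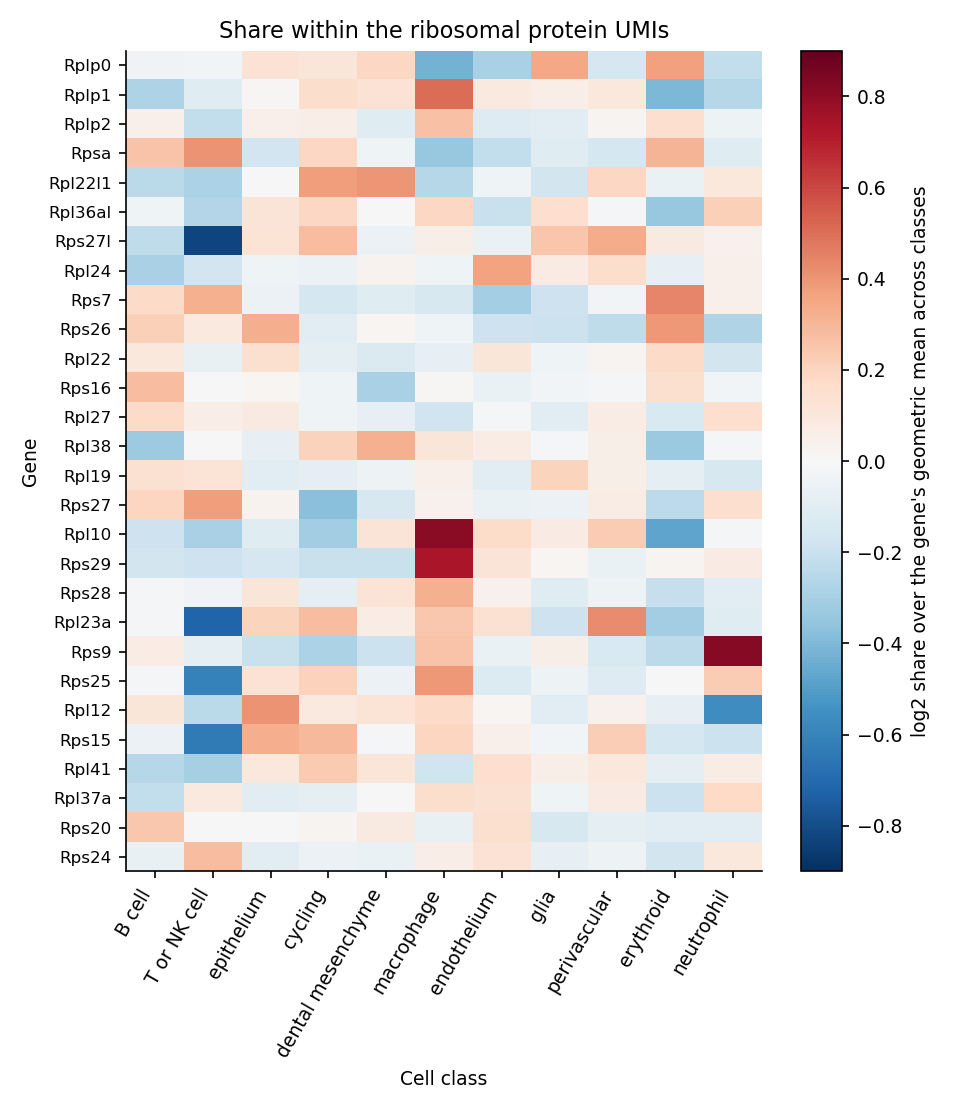
Make-up of the ribosomal protein UMIs by cell class for the named members with enough UMIs in every class. Rows are genes, columns are classes, and colour is the log2 of the gene's share of ribosomal protein UMIs (both libraries) over its geometric mean across classes. The strongest colours are Rpl10 and Rps29 in macrophages and Rps9 in neutrophils (high), and Rps27l and Rpl23a in T or NK cells (low).

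The paralogs, some of which can replace their core partner in the ribosome, differed in where they were detected. Rpl22l1, the partner of Rpl22, was in use everywhere and had 2221 CPM in Lipo-Clo and 1766 in Lipo-PBS in the dental mesenchyme, a log2 ratio of 0.33 (0.31 to 0.36). Its share of the set was 1.51% there and 0.943% in T or NK cells in the pooled libraries, and the classes with the lowest share were macrophages in Lipo-Clo and B cells in Lipo-PBS. By cluster it ran from 2770 CPM in the mesenchymal cluster led by Egfem1, Lrrc4c and Cntn6 to 665 CPM in the Amelx cluster, both libraries together. Rpl22 itself had 1069 and 818 CPM in the dental mesenchyme (0.39). Rps27l, the p53-responsive partner of Rps27, had 626 and 467 CPM there (0.42, 0.38 to 0.47). Rpl36al, a retrogene-derived partner of Rpl36a, had 871 and 702 CPM (0.31).

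Rpl39l, a paralog of the exit tunnel protein Rpl39 known from male germ cells, was too low to count as in use in the dental mesenchyme but was detected at 26.9 CPM in Lipo-Clo (361 UMIs) and 12.0 CPM in Lipo-PBS (156 UMIs), a log2 ratio of 1.16 (0.89 to 1.44). It had the highest level in the cluster led by Egfem1, Lrrc4c and Cntn6, with 80.2 CPM in Lipo-Clo (139 UMIs) and 49.2 CPM in Lipo-PBS (55 UMIs). The odontoblast cluster led by Dspp followed, with 49.7 and 32.7 CPM from 37 and 17 UMIs. Rpl39l was lowest in glia and in the endothelial cluster led by Flt1, at 0.923 and 1.77 CPM over both libraries, from 1 and 2 UMIs. Other named clusters outside the dental mesenchyme ran from 2.34 CPM in the Amelx cluster to 22.8 CPM in cycling cells (41 UMIs). T or NK cells had 9.51 CPM from 5 UMIs and neutrophils 7.75 CPM from 19. Free RNA was not measured. The cluster with most Rpl39l was itself of unequal size, and Lipo-Clo had 500 cells of that cluster against 286 in Lipo-PBS. Rps4l had 75.0 and 62.6 CPM in the dental mesenchyme (0.26, 0.13 to 0.40) and was also highest in the Egfem1 cluster, at 99.9 CPM. Rps27rt had 12.3 and 14.3 CPM (−0.21, −0.52 to 0.10), and Rpl7l1 48.3 and 47.7 CPM (0.02, −0.14 to 0.18).

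Rpl3l, the partner of Rpl3 known from heart and skeletal muscle, had 76 UMIs in all deposited cells. In the cells used, 33 came from neutrophils, at 13.5 CPM, with 28 UMIs in Lipo-Clo (14.8 CPM) and 5 in Lipo-PBS (8.87 CPM). Without the 2 neutrophil subclusters led by genes of other lineages, 28 UMIs remained, from 23 in Lipo-Clo (19.3 CPM) and 5 in Lipo-PBS (19.0 CPM). The next cluster, led by Ms4a6c, Cd74 and Lyz2, had 14 UMIs at 4.22 CPM. Rpl10l had 4 UMIs, Rps23rg1 6 and Rpl27rt 45, which allows no comparison. Rpl37rt had 53.0 and 49.1 CPM in the dental mesenchyme (0.11, −0.05 to 0.27). Retrocopies share nearly all of their sequence with the parent gene, so how their reads were divided between the copies is uncertain.

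Genes that work beside the ribosomal proteins were counted from lists in the same class, dental mesenchyme. Fau, which encodes a small subunit protein fused to a ubiquitin-like domain and falls outside the symbol rule, had a log2 ratio of 0.31, and Rack1, which sits on the small subunit, had 0.33. Of the 11 ribosome-associated genes in use, 6 were at least 1.2-fold higher and 0 lower, with a median of 0.31. These and the next counts stand beside the 22% of all genes in use that were at least 1.2-fold higher and the 22.7% that were lower. Of 39 translation factors, 13 were higher and 2 lower, with a median of 0.15. Eif5a, which helps the ribosome through difficult peptide bonds, had 0.47, while Gspt1, the release factor eRF3, had −0.37. Of 22 ribosome biogenesis genes in use, 7 were higher and 1 lower, with Nop10 and Nhp2, 2 proteins of the RNA modification particle, at 0.46 and 0.47 and Wdr43 at −0.33. Of 10 mTOR and MYC axis genes in use, 1 was higher and 3 lower, with Eif4ebp1 at 0.35 and Rictor at −0.50. Myc itself had 31.4 and 30.0 CPM (0.06, −0.14 to 0.26). Nuclear-encoded mitochondrial ribosomal proteins, which serve a different ribosome, had 46 of 58 higher and 0 lower, with a median of 0.34.

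Other measures differed between the libraries beside these results, and their part in them was not tested. All 12 mitochondrially coded genes in use were at least 1.2-fold lower in Lipo-Clo in the dental mesenchyme, with a median log2 ratio of −1.95, and were lower in every class. The nuclear RNA Malat1 had 12512 CPM in Lipo-Clo and 18766 in Lipo-PBS (−0.58), and 4 of 5 nuclear RNAs in use were at least 1.2-fold lower. Of 15 dissociation stress genes in use, 1 was higher and 4 lower, near the 22.7% of all genes that were lower, with Atf3 at −0.78. Only 3 of the 15 were above 0, and their median was −0.16, against −0.01 over all genes in use. Other classes differed in how many stress genes were at least 1.2-fold lower. It was 11 of 14 in endothelium (20% of genes) and 12 of 16 in epithelium (22.5%), but 2 of 13 in glia (32.4%) and 1 of 16 in perivascular cells (19.3%). With mitochondrial and haemoglobin genes left out of the totals, the log2 ratio of the share in the dental mesenchyme was 0.23 in place of 0.29, and 31 members passed 1.2-fold in place of 58. The share of all genes past the limit was not counted there. Their median log2 ratio was −0.07, against 0.24 over the members. In cells with 500 to 1000 UMIs the share was 8.50% in Lipo-Clo against 9.03% in Lipo-PBS, for a log2 ratio of −0.09, whereas it was 0.26 at 1000 to 2000 UMIs, 0.30 at 2000 to 4000, 0.32 at 4000 to 8000 and 0.19 at 8000 and above.

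The ratio also ran with transcript length among genes that are not members. Other genes in use with a median annotated transcript under 1000 bases had a median log2 ratio of 0.23, and 43.2% of them were at least 1.2-fold higher in Lipo-Clo. Genes of 1000 to 2000 bases had 0.10, those of 2000 to 3000 bases −0.09 and those of 3000 bases and above −0.20. Across these 4502 genes, which are not independent, Spearman's rho between length and ratio was −0.47. Of the 82 members in use with a known length, 67 are under 1000 bases, and their median of 0.31 lay above the 0.23 of other short genes. The 13 members of 1000 to 2000 bases had a median of 0.27. Across the 82 members, most of which are short, rho was 0.07, so the fall with length seen in the other genes was not seen. The shortest members were Rpl38 (367.5 bases, log2 ratio 0.20), Rps28 (382, 0.01), Rpl36 (383, 0.21), Rps29 (390, 0.05), Rps21 (394, 0.31) and Rps27 (398.5, 0.16). Of these, only Rps21 lay near the median of 0.31, and a part of length in the low ratios was not tested. By level, 41.1% of other genes at 300 to 1000 CPM were at least 1.2-fold higher, against 25 of 33 members, and 35.8% of those at 1000 CPM and above, against 32 of 46 members.

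**Figure D5:**
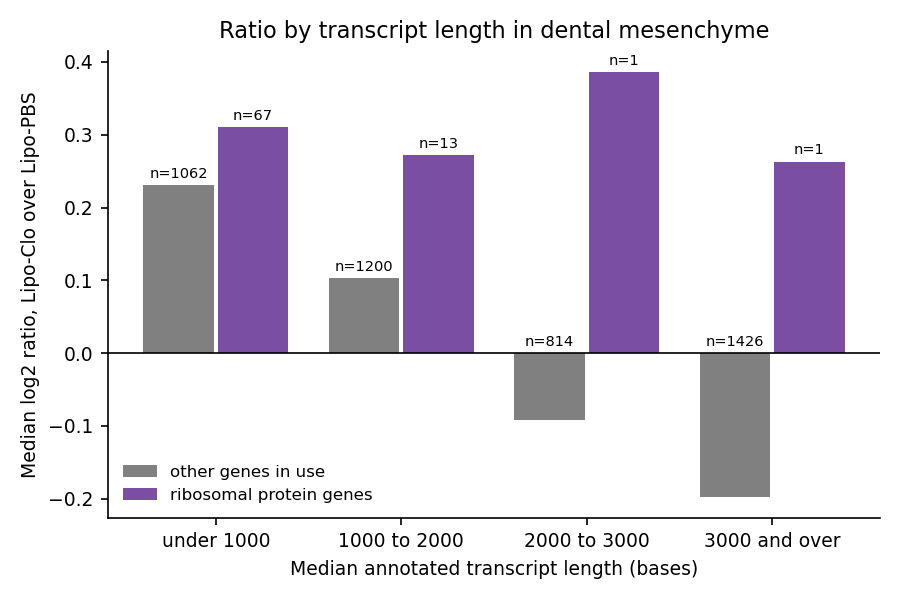
Median log2 ratio of CPM, Lipo-Clo over Lipo-PBS, in the dental mesenchyme (y axis) by median annotated transcript length (x axis, bases), for ribosomal protein genes and for the other genes in use, with the number of genes above each bar. Other genes go from 0.23 under 1000 bases to −0.20 at 3000 bases and above, while the members stay at 0.31 and 0.27 in the 2 bins that hold 80 of 82 of them.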

How the data were processed

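Raw UMI counts of each gene in each called cell were deposited by the authors, and the file headers name Cell Ranger 8.0.0. The submitters' processing notes name Cell Ranger 3.1.0, Seurat 3.1.1 and the build GRCm39, and the conflict in version could not be settled. Depth was 31053404 UMIs in 9362 Lipo-Clo cells and 30537834 in 9653 Lipo-PBS cells. Cells were kept with at least 200 genes and a mitochondrial share of at most 20%. Scrublet's automatic threshold called 0 and 1 doublets, so the highest scores, 632 and 633 cells, were left out instead. Counts were clustered in scanpy 1.11.5 (2000 variable genes without members, 30 components, 20 neighbours, Leiden resolution 1, seed 1), and clusters were named by at least 3 marker genes. UMIs were summed per class and library. Ratios carry exact conditional Poisson intervals and shares exact Clopper-Pearson intervals. The interval script was tested on simulated data. The text names stalk genes, Rpsa, paralogs, and the 8 highest and 8 lowest ratios, 8 widest ranges and 5 largest counts. The members and lists were chosen with earlier results of these data known. Transcript lengths came from GENCODE M21, whose coordinates are not printed.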

Additional observations from a re-analysis of the deposited data

Results flagged for a closer look

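The share of ribosomal protein UMIs was lower in Lipo-Clo in epithelium, with a log2 ratio of −0.25, while it was higher in dental mesenchyme and 8 other classes. The difference between the classes was not tested, because each condition has 1 library. With the same mixture of the 3 epithelial clusters in both libraries, the log2 ratio was 0.18.

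The share was also lower in neutrophils, with a log2 ratio of −0.32, again opposite to dental mesenchyme and not tested. With the same mixture of the 6 neutrophil subclusters it was −0.01, and without the 2 subclusters led by mesenchymal or ameloblast genes it was 0.52. In the latter cells it was 0.37 with mitochondrial and haemoglobin genes left out of the totals. In the largest of their subclusters it was 0.23 with all genes in the totals.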

How the results depend on the processing

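The log2 ratio of the share in dental mesenchyme, 0.29, stayed above 0 throughout. It was 0.28 with doublets kept, 0.30 with a minimum of 500 genes and a mitochondrial share up to 10%, 0.28 with every deposited cell, 0.29 at Leiden resolution 2, 0.23 without mitochondrial and haemoglobin genes, 0.25 as a mean over cells, 0.28 in cells thinned to 1000 UMIs and 0.24 with the same mixture of subclusters. In the same order, leaving out the last, the spread across classes of 1.61 became 1.38, 0.92, 1.78, 0.85, 1.70, 1.93 and 1.90, and 1.71 with members among the variable genes. At the stricter filter and at resolution 2, 889 and 1020 cells were named neutrophil in place of 755, of which 539 and 733 were among those 755. The 58 members at least 1.2-fold higher became 31 without mitochondrial and haemoglobin genes, 37 as a mean over cells, 35 with the same mixture and 0 at 1.5-fold, and 46 to 61 under the other settings. These counts are out of 84 members, except 79 in thinned cells and 86 where all genes with at least 20 UMIs were taken. For the counts of 31, 37 and 35 the share of all genes past the limit was not counted. The median log2 ratio there was 0.24, 0.26 and 0.25 over the members and −0.07, 0.03 and −0.002 over all genes in use. None was 1.2-fold lower under any setting run. Rps29 turned from 0.05 to −0.0098 without mitochondrial and haemoglobin genes and to −0.0018 with the same mixture. Under 4 settings each, Rps28 (down to −0.050) and Rpl7l1 (down to −0.046), whose intervals include 0, also fell below 0. Classes with a higher share in Lipo-Clo numbered 8 to 10. The cause was not tested. In thinned cells the median of all genes was 0.09. Leaving out the subclusters led by haemoglobin genes or by genes of other lineages, and splitting epithelium and neutrophils into clusters, were chosen after seeing the data. No paired analysis was possible because only 1 library stands for each condition. With 1 library each, depth limits only the counting error.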
